A study of Mus musculus with 6 samples.

Results

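The genes described here encode the proteins of the cytosolic ribosome, measured in mouse embryonic cells sorted as ETV2::GFP+FLK1+CD41-. They were chosen by annotation symbol (*Rpl* or *Rps* followed by a number, *Rplp0* to *Rplp2*, and *Rpsa*), without the *Rps6k* kinases, and 38 of the 16523 genes of the deposited table met the rule, 23 of the large subunit and 15 of the small subunit. RefSeq lists 83 protein-coding mouse genes with such symbols, and 45 of them were without a single-symbol probe set in the table, so the family is described through a part of it. Among those not covered were *Rpl5*, *Rpl11*, *Rps6*, *Rpl38* and *Rpl22l1*. Of the 38 genes, 4 are paralogs or like-genes of core ribosomal proteins (*Rpl3l*, *Rpl7l1*, *Rpl39l* and *Rps27l*), and 13 rested on 1 probe set.

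The E8.5 cells and the E7.5 cells came from embryos of ICR females mated with ETV2::GFP males, with 3 arrays per stage and 50 sorted cells per array. GFP marks cells that have transcribed *Etv2*, FLK1 (*Kdr*) is a receptor of mesodermal and endothelial precursors, and cells carrying CD41 (*Itga2b*) were gated out. The paper places the E8.5 cells in the embryo proper and describes those of E7.5 as extra-embryonic in its discussion, whereas the labels give the stage only, so stage and site cannot be told apart. Amplified RNA was hybridized to Affymetrix Mouse Exon 1.0 ST arrays, and the authors deposited RMA values, which are background-corrected and quantile-normalized log2 signals of exon probe sets. Nothing in the sources used here says that the replicates came from separate litters, although the methods call the triplicates biological samples. The p-values therefore cover the spread among these arrays alone, and precision is limited by having 3 arrays per stage.

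A ribosome joins a large subunit, which forms peptide bonds, to a small subunit, which reads the mRNA, and each ribosomal protein is needed in about equal number. Cells therefore make these proteins from mRNAs that are coordinately controlled. Most of those mRNAs begin with a C followed by an unbroken stretch of pyrimidines, the 5′ terminal oligopyrimidine (TOP) motif, through which mTOR and the RNA-binding protein LARP1 set their translation. Blood formation is sensitive to ribosomal protein dose, and in human loss of 1 copy of genes such as *RPS19* or *RPL35A* causes Diamond-Blackfan anemia.

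Start windows are shown for a few genes described below, as 30 bases of the GRCm38.p6 genome around the RefSeq start (15 bases before and 15 after it, 5′ to 3′ on the strand of the gene). Capitals mark the longest run of C and T anywhere in the window, which need not be a TOP motif. In *Rpl4*, *Rps27l*, *Rpl7l1* and *Rpl22* that run ended before the RefSeq start.
*Rpl27a*, chr7:109519180-109519209, + strand: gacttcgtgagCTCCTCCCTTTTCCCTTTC
*Rpl13a*, chr7:45128731-45128760, - strand: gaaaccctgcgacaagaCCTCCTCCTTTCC
*Rpl4*, chr9:64173372-64173401, + strand: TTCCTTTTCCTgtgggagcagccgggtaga
*Rps10*, chr17:27635230-27635259, - strand: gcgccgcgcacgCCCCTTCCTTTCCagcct
*Rps27l*, chr9:66946071-66946100, + strand: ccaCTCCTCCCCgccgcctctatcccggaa
*Rpl7l1*, chr17:46782642-46782671, - strand: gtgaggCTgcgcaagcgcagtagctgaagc
*Rpl22*, chr4:152324421-152324450, + strand: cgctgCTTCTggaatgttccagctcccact
Of the 38 genes, 32 had RefSeq start windows, 42 in all, and a run of at least 8 pyrimidines lay in 14 of the 42 windows (33.3%), against 12.03% of the 21263 windows of protein-coding genes. On the other strand of the same windows the shares were 4.76% for the ribosomal protein genes and 12.8% for protein-coding genes. Genes with strongly negative differences were found on both sides, since *Rpl27a* and *Rpl13a* had runs of 19 and 13 pyrimidines and *Rpl7l1* and *Rpl22* runs of 2 and 5 in the windows printed. The 13 genes with a run had a median log2 difference of -0.27 and the 19 without one -0.16, a description with no test. RefSeq starts can lie off the true start, and a window without a run says only that these letters are not in it. The sequence CCGGAAG, a binding core of ETS factors, the family of ETV2, was present on either strand in 13 of the 42 promoters of 300 bases (31.0%), against 11.6% of the promoters of protein-coding genes. The share was 20.0% for large and 47.1% for small subunit genes. These 42 promoters belong to 32 genes, and binding of ETV2 or another ETS factor to them was not tested.

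Most ribosomal protein genes had a slightly lower mean signal at E8.5 than at E7.5, and none of the 38 passed the test. The log2 difference, E8.5 minus E7.5, was negative for 28 genes and positive for 10, while 49.5% of all 16523 genes were negative. The median difference was -0.14 for the ribosomal protein genes and 0.0035 for all genes. The extremes were *Rpl7l1* at -1.21 and *Rpl39l* at 0.73, and *Rpl7l1* was the only one of the 38 that differed by more than 2-fold in mean signal. By that measure 4.79% of all genes were lower at E8.5 and 2.72% were higher.
The test was limma across all 16523 genes with Benjamini-Hochberg adjustment, by which 0.109% of all genes passed at 0.05, 0.0726% as lower and 0.0363% as higher at E8.5, and the 38 adjusted p-values lay between 0.17 and 0.997. At an unadjusted p under 0.05, 2 of the 38 were lower at E8.5 (*Rpl7l1* and *Rpl13a*), where 4.68% of all genes were, and 0 were higher, where 3.11% of all genes were. The 95% interval of the difference lay wholly within 2-fold in both directions for 18 of the 38, against 55.1% of all genes. The median of the 38 was -0.24 when E7.5 replicate 1 was left out, -0.073 when E8.5 replicate 2 was, and -0.057 when only the brightest probe set of each gene was taken. Negative differences numbered 23 of the 38 with the brightest probe set and 23 after a second quantile normalization. They numbered 25 with array medians made equal and 29 with the mean over probe sets.

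**Figure D1:**
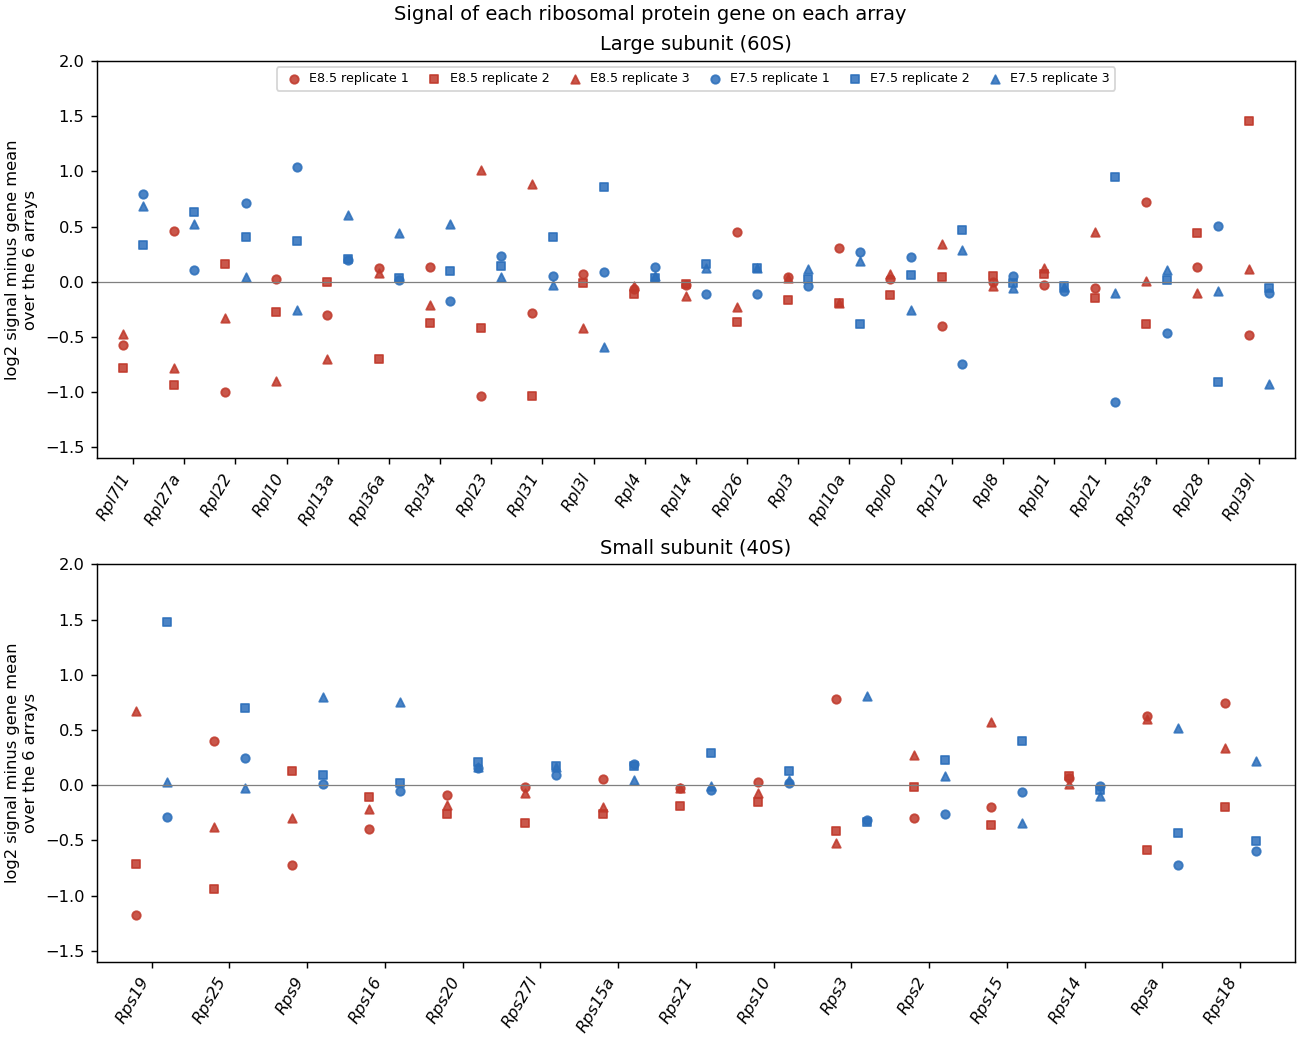
Log2 signal of each of the 38 genes on each array, minus the gene's mean over the 6 arrays (vertical axis), for the 23 large subunit genes (top) and the 15 small subunit genes (bottom), ordered by stage difference. Red marks are E8.5 arrays, blue marks E7.5 arrays, and shapes give the replicate. In these gene values, which are medians over probe sets, the stages separate for *Rpl7l1* at the left, whereas for *Rpl23* the 3 E8.5 arrays span 2.05 log2 units.

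All 3 E8.5 arrays lay below all 3 E7.5 arrays for 6 of the 38 genes, where 7.12% of all genes showed this, and all 3 lay above for 2, where 7.10% of all genes did. With 3 arrays per stage, the smallest two-sided p that an exact permutation test can give for a single gene is 0.1.
*Rpl7l1*, a paralog of the large subunit gene *Rpl7*, had log2 signals of 9.51, 9.30 and 9.61 on the E8.5 arrays, against 10.87, 10.41 and 10.77 on the E7.5 arrays. The E8.5 arrays lay within 0.31 of each other and the lowest E7.5 array was above the highest of them. This holds for the per-array medians. On its brightest probe set the stages overlapped, with 11.46, 11.37 and 12.36 at E8.5, against 12.57, 12.76 and 12.31 at E7.5. They also overlapped on a probe set with 10.87, 9.51 and 9.61 at E8.5, against 11.24, 10.41 and 11.18 at E7.5, and on both dimmer ones. Only the probe set with 9.51, 9.30 and 10.08 at E8.5, against 10.87, 11.05 and 10.77 at E7.5, separated the stages by itself. The log2 difference of the gene value was -1.21 (standard error 0.20, 95% interval -1.70 to -0.72, adjusted p = 0.17 from limma), and the means of all 5 probe sets were lower at E8.5, with differences of -1.42 to -0.66. With any 1 array left out it lay between -1.35 and -1.12, with no adjusted p below 0.23 from limma, and on its brightest probe set it was -0.82.
*Rpl13a*, a large subunit protein that in human monocytes is also released to repress inflammatory mRNAs, had signals of 9.93, 10.23 and 9.54 at E8.5, against 10.43, 10.44 and 10.84 at E7.5. Its stages were apart, with a log2 difference of -0.67 (standard error 0.25, adjusted p = 0.58 from limma), yet only 3 of its 6 probe sets were lower at E8.5. Those 6 differences ran from -2.48 to 0.53, and the brightest probe set, at 13.44 at E8.5 and 13.43 at E7.5, differed by 0.0088.
*Rpl4*, whose protein lines the peptide exit tunnel, lay at 12.35, 12.30 and 12.37 at E8.5, against 12.54, 12.45 and 12.46 at E7.5. The difference of -0.15 (standard error 0.15, adjusted p = 0.85 from limma) is a fold of 0.90, and each of its 4 probe sets separated the stages, with differences of -0.24 to -0.10.
In the small subunit the stages were apart for *Rps20*, *Rps16* and *Rps27l*. *Rps20*, a protein of the head of the small subunit whose mouse mutation darkens the skin, had 12.20, 12.03 and 12.11 at E8.5, against 12.45, 12.50 and 12.46 at E7.5, a difference of -0.36 (standard error 0.15, adjusted p = 0.67 from limma) on its 1 probe set. *Rps16* had 10.17, 10.46 and 10.36 at E8.5, against 10.51, 10.59 and 11.32 at E7.5, so that the gap between the stages was narrow and E7.5 replicate 3 stood above its stage. Its difference of -0.48 was -0.22 without that array.
*Rps27l*, a paralog of *Rps27* induced by p53, had 11.35, 11.02 and 11.29 at E8.5, against 11.45, 11.53 and 11.53 at E7.5. Of its 2 probe sets, 1 had -0.62 and the other 0.051, so the difference of -0.28 (standard error 0.17, adjusted p = 0.74 from limma) rests on the dimmer one, and it was -0.18 without E8.5 replicate 2.
The genes that were apart in the other direction differed by little. *Rplp1*, an acidic protein of the stalk that recruits elongation factors, had 13.29, 13.38 and 13.44 at E8.5, against 13.24, 13.28 and 13.27 at E7.5, a difference of 0.11 (standard error 0.15). Its brightest probe set differed by 0.00011 and its dimmest by -0.30, and on both the stages overlapped. *Rps14*, whose loss of 1 copy underlies the anemia of the human 5q- syndrome, had 13.21, 13.24 and 13.16 at E8.5, against 13.14, 13.11 and 13.05 at E7.5, a difference of 0.11 (standard error 0.15). Neither of its 2 probe sets separated the stages by itself. The value of *Rplp1* on E8.5 replicate 3, 13.44, was the highest of any gene on any array, and no saturation calls accompany the values.

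**Figure D2:**
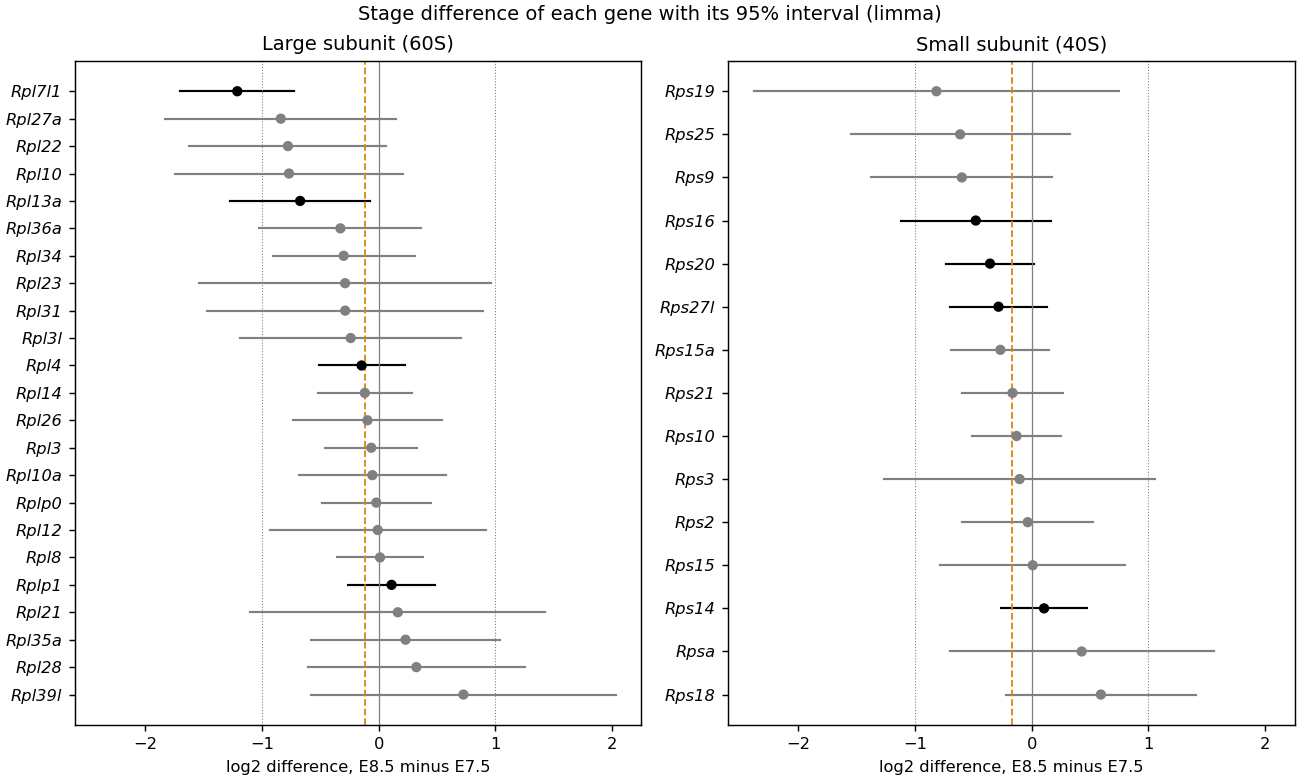
Log2 difference of each gene, E8.5 minus E7.5 (horizontal axis), with its 95% interval from limma, for the large subunit (left) and the small subunit (right). Black marks genes whose stages do not overlap (6 lower and 2 higher at E8.5), dotted lines mark 2-fold, and the dashed line is the subunit median, -0.12 for the large and -0.16 for the small subunit.

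The subunits differed little from each other. Of the large subunit genes 17 of 23 had a negative difference, and of the small subunit genes 11 of 15, or 73.9% and 73.3%. The median log2 difference was -0.12 over the large subunit genes and -0.16 over the small subunit genes, so that the large minus small difference of the medians was 0.046. Array by array, the median deviation of the large subunit genes from their own means, minus that of the small subunit genes, was 0.014, 0.11 and 0.028 on the E8.5 arrays, against 0.096, -0.044 and -0.034 on the E7.5 arrays. These ranges overlap. On the brightest probe set of each gene the order of the subunit medians turned, to -0.14 for large minus small with a small subunit median of 0.0045, whereas over the 16 genes with at least 3 probe sets the difference was 0.42.
Leaving out E7.5 replicate 1 gave a large subunit median of -0.24, leaving out E8.5 replicate 2 one of -0.031 and leaving out E7.5 replicate 2 one of -0.068. For the small subunit, the median was -0.35 when E8.5 replicate 1 was left out, -0.11 when E8.5 replicate 2 was, and -0.25 to -0.21 when any other array was. The difference of the subunit medians was 0.20 when E8.5 replicate 1 was left out, 0.14 when E8.5 replicate 3 was, 0.18 when E7.5 replicate 2 was and 0.0013 when E7.5 replicate 1 was.

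One array stood out for the family as a whole. On E8.5 replicate 2, 8 of the 38 genes lay above their own mean over the 6 arrays, where 49.3% of all genes did, and the median deviation was -0.19. On E8.5 replicates 1 and 3 the median deviations were -0.0062 and -0.055, against 0.014, 0.14 and 0.068 on E7.5 replicates 1, 2 and 3. All 3 E8.5 medians were thus below all 3 E7.5 medians, with E8.5 replicate 1 and E7.5 replicate 1 closest to each other. The same array stood apart in part of the cardiac genes. The mean level of the 7 cardiac markers was 8.89 on E8.5 replicate 2, against 6.81 and 6.87 on E8.5 replicates 1 and 3 and 7.52 to 8.31 on the E7.5 arrays. *Tnnt2*, a sarcomere gene, was at 11.08 on it and at 6.42 and 7.95 on the other E8.5 arrays. *Actc1*, *Tnni1*, *Myl7* and *Myh6* were also highest there among the E8.5 arrays. *Nkx2-5* (7.80, against 8.12 and 7.66) and *Myh7* (6.60, against 6.61 and 6.54) were not. *Myl7*, at 10.63 on E8.5 replicate 2, lay at 10.70 to 11.34 on the E7.5 arrays. The part of cardiac cells in the ribosomal protein levels was not tested, and without E8.5 replicate 2 the median difference was -0.073 with 23 of the 38 negative. For all genes the medians of the arrays lay between -0.028 and 0.0019. E7.5 replicate 2 was the highest array for the family, with 29 of 38 genes above their own mean, and in the small subunit 2 of 15 genes were above their mean on E8.5 replicate 2 and 11 of 15 on E7.5 replicate 2. In these bulk samples, fewer cells of a type and less RNA per cell cannot be told apart, and the quantile-normalized values are relative to the rest of each array.

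**Figure D3:**
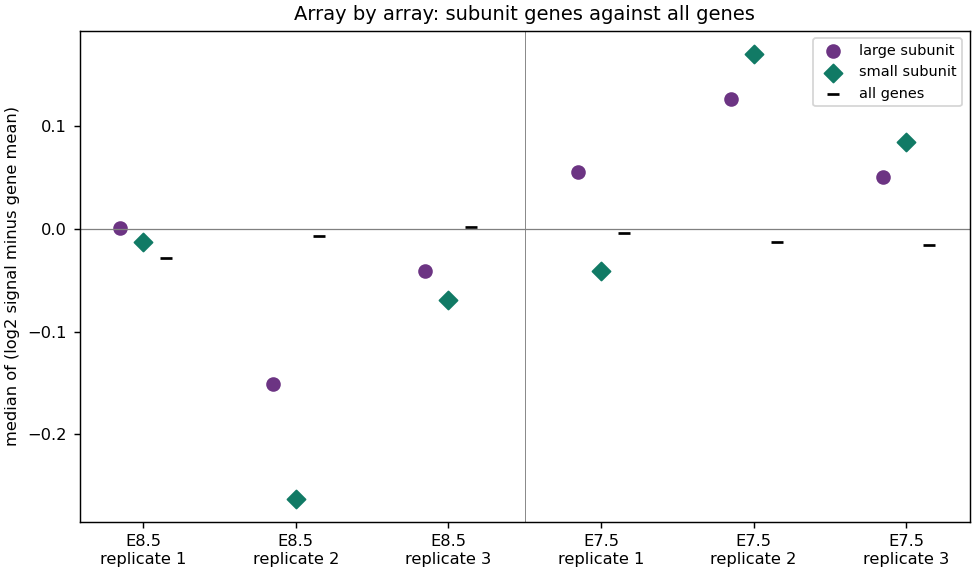
Median over genes of the log2 signal minus the gene's own mean over the 6 arrays (vertical axis), for each array, with E8.5 arrays left and E7.5 arrays right. Circles are the 23 large subunit genes, diamonds the 15 small subunit genes and dashes all 16523 genes; E8.5 replicate 2 is lowest for both subunits, at -0.15 and -0.26, and E7.5 replicate 2 highest, at 0.13 and 0.17.

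Among the genes with known roles in blood or development, several had negative differences with wide intervals. *Rpl22*, an RNA-binding protein needed for T cell development in mouse and, in zebrafish, opposed by its paralog *Rpl22l1* in the emergence of blood stem cells, had signals of 8.06, 9.22 and 8.73 at E8.5, against 9.77, 9.47 and 9.10 at E7.5. The stages overlapped between E8.5 replicate 2 and E7.5 replicate 3, and the difference was -0.78 (standard error 0.35, 95% interval -1.62 to 0.066, adjusted p = 0.68 from limma) on 1 probe set, or -0.47 without E8.5 replicate 1.
*Rps19*, a small subunit protein needed for maturation of the small subunit rRNA, had 7.62, 8.08 and 9.47 at E8.5, against 8.51, 10.28 and 8.83 at E7.5. The difference of -0.82 had a standard error of 0.64 (adjusted p = 0.79 from limma), and the arrays spanned 1.85 log2 units at E8.5 and 1.77 at E7.5. It was -0.28 without E7.5 replicate 2 and -1.36 without E8.5 replicate 3. The differences of its 3 probe sets were all negative, but only -0.094 for the bright one, which lay at 12.30 at E8.5 and 12.40 at E7.5, and -0.30 and -1.66 for the dim ones.
*Rpl27a*, a large subunit gene whose mouse mutation Sooty foot causes anemia and pigment changes, had 10.91, 9.51 and 9.67 at E8.5, against 10.55, 11.08 and 10.97 at E7.5. E8.5 replicate 1 lay among the E7.5 arrays, and without it the difference of -0.84 (standard error 0.41, adjusted p = 0.70 from limma) became -1.28 with an adjusted p of 0.30 from limma. All 3 of its probe sets moved together, with differences of -1.22 to -0.84.
*Rpl10*, which joins the large subunit late in its assembly, had 8.05, 7.75 and 7.13 at E8.5, against 9.07, 8.40 and 7.78 at E7.5. The stages overlapped and the difference was -0.77 (standard error 0.40, adjusted p = 0.72 from limma), or -0.44 without E7.5 replicate 1.
*Rps10*, another Diamond-Blackfan gene in human, had a narrow interval, with 12.42, 12.23 and 12.31 at E8.5, against 12.40, 12.52 and 12.44 at E7.5, a difference of -0.13 (95% interval -0.51 to 0.25). *Rpl35a*, also a Diamond-Blackfan gene in human, had a difference of 0.23 (95% interval -0.58 to 1.04), with 2 of its 5 probe sets higher at E8.5. For *Rpsa*, whose human mutations cause absence of the spleen, the values were 8.68, 7.46 and 8.65 at E8.5, against 7.33, 7.61 and 8.56 at E7.5, with a difference of 0.43 (95% interval -0.70 to 1.56), which was 0.17 without E7.5 replicate 1 and 0.83 without E8.5 replicate 2.
The core genes of the peptidyl transferase center and of the stalk differed little. *Rpl3*, near the site of peptide bond formation, had -0.063 (95% interval -0.46 to 0.33), *Rpl8* had 0.012 (95% interval -0.36 to 0.38) and *Rplp0*, the base of the stalk, had -0.020 (95% interval -0.49 to 0.45). All 3 intervals lay within 2-fold in both directions.
The tissue-restricted paralogs were uncertain. *Rpl3l*, a paralog of *Rpl3* used in heart and skeletal muscle, had 4.52, 4.43 and 4.03 at E8.5, against 4.54, 5.31 and 3.85 at E7.5, and whether these signals lay above background is unknown. *Rpl39l*, a paralog of *Rpl39* used in the male germ line, had 5.43, 7.38 and 6.04 at E8.5, against 5.82, 5.86 and 4.99 at E7.5. Its difference of 0.73 (standard error 0.54, adjusted p = 0.78 from limma) was 0.18 without E8.5 replicate 2. The genes not described singly were *Rpl10a*, *Rpl14*, *Rpl26*, *Rpl34*, *Rpl36a*, *Rps2*, *Rps15*, *Rps18*, *Rps21* and *Rps25*. Their stages overlapped, their differences ran from -0.61 (*Rps25*) to 0.59 (*Rps18*), and the lowest of their adjusted p-values from limma was 0.73. *Rps18* had 5.63, 4.70 and 5.23 at E8.5, against 4.30, 4.38 and 5.11 at E7.5, on 1 probe set. Whether these signals lay above background is unknown, as for *Rpl3l*. Ribosomal protein genes have many processed pseudogenes of near-identical sequence, and whether the probe sets also bind transcripts of such copies was not tested.

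The spread between replicates varied widely within the family. The SD of a gene over the 3 arrays of a stage, pooled over both stages, ran from 0.042 (*Rps14*) to 0.95 (*Rps19*), with a median of 0.35 against 0.34 for all genes. Exactly 19 of the 38 lay below the median of all genes, 8 lay below its 5th percentile of 0.11 and 1 above its 90th percentile of 0.94. The 6 tightest genes were *Rps14*, *Rpl4*, *Rpl8*, *Rplp1*, *Rps20* and *Rps10*, between 0.042 and 0.078, and the 6 loosest *Rps19*, *Rpl39l*, *Rpl21*, *Rpl23*, *Rpl31* and *Rps3*, between 0.69 and 0.95.
The median SD of the 38 genes was 0.30 at E8.5 and 0.27 at E7.5, against 0.30 and 0.29 for all genes at E8.5 and E7.5. It was 0.32 at E8.5 and 0.24 at E7.5 for the large subunit genes, and 0.28 at E8.5 and 0.36 at E7.5 for the small subunit genes. The SD was larger at E8.5 for 22 of the 38, 11 of 23 in the large and 11 of 15 in the small subunit, which is 57.9% of the 38 against 52.0% of all genes. The small subunit median at E7.5 ran from 0.059 when E7.5 replicate 3 was left out to 0.50 when E7.5 replicate 1 was, and with the mean over probe sets it was 0.19, below the 0.28 at E8.5, so no order of the stages is read from these medians.
In the gene values, which are medians over probe sets, single arrays made much of the spread. *Rpl23*, a large subunit protein that binds the p53 regulator MDM2, had 7.57, 8.19 and 9.62 at E8.5, against 8.84, 8.75 and 8.65 at E7.5, a range of 2.05 at E8.5 and 0.19 at E7.5. *Rpl31*, at the tunnel exit, had 8.68, 7.93 and 9.85 at E8.5, against 9.02, 9.36 and 8.94 at E7.5, and here too E8.5 replicate 3 was highest. *Rpl21* showed the reverse, with 9.83, 9.74 and 10.34 at E8.5, against 8.80, 10.84 and 9.78 at E7.5, a range of 0.60 at E8.5 and 2.04 at E7.5. The spread of *Rpl23* was not shared by its brightest probe set, with 12.95, 13.08 and 13.03 at E8.5, against 13.11, 13.02 and 13.01 at E7.5. A dimmer *Rpl23* probe set spread at E7.5 too, with 8.51, 7.06 and 8.00 there.
For *Rps3*, which lines the mRNA entry channel, 1 array of each stage stood above the others, with 11.52, 10.32 and 10.21 at E8.5, against 10.42, 10.40 and 11.54 at E7.5. Its brightest probe set did not show this, with 12.82, 12.58 and 12.80 at E8.5, against 12.71, 12.79 and 12.68 at E7.5. *Rpl28* had 11.90, 12.21 and 11.66 at E8.5, against 12.27, 10.86 and 11.68 at E7.5, with E7.5 replicate 2 the low array. All 3 *Rpl28* probe sets were lowest on that array.

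**Figure D4:**
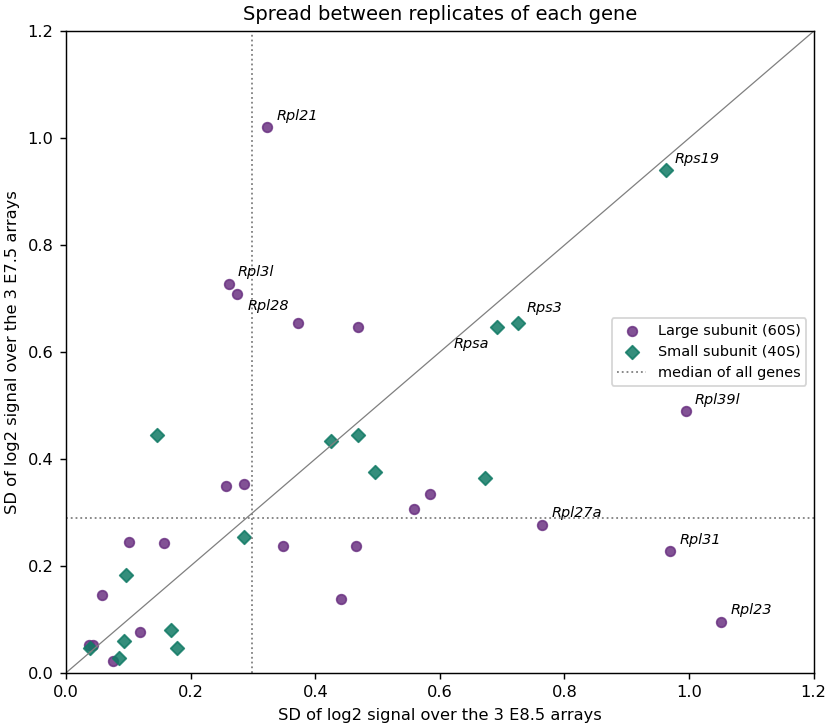
SD of the log2 signal of each gene over the 3 E8.5 arrays (horizontal axis) and over the 3 E7.5 arrays (vertical axis), with circles for the large and diamonds for the small subunit, the line of equality, and dotted lines at the medians of all genes, 0.30 and 0.29. In these gene values *Rpl23* and *Rpl31* spread mainly at E8.5, *Rpl21* mainly at E7.5, and *Rps19* at both stages.

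The median spread was smallest among the bright genes. The 8 genes with a mean log2 signal above 12 had a median pooled SD of 0.059, with *Rpl36a* at 0.37 and *Rps2* at 0.27 as the loosest, the 16 between 10 and 12 one of 0.30 and the 14 at or below 10 one of 0.56, with limits chosen after the values were seen. Over all genes in the same ranges the medians were 0.085, 0.27 and 0.35. The 8 bright genes differed between the stages by -0.36 to 0.11. Negative differences were found in 5 of the 8 bright genes, in 15 of the 16 of middle signal and in 8 of the 14 dim ones, while 52.0%, 62.3% and 49.0% of all genes in these ranges were negative.
Between any 2 arrays of E8.5, 5 to 7 of the 38 genes differed by more than 2-fold, and between any 2 arrays of E7.5 4 genes did. Between arrays of different stages the number was 5 to 9. As shares these were 13.2 to 18.4% within E8.5, 10.5% within E7.5 and 13.2 to 23.7% between stages, where the shares of all genes were 14.2 to 15.3%, 13.5 to 14.7% and 14.8 to 17.1%. The ranges for pairs within E8.5 and for pairs of different stages overlap.

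The probe sets of a gene often disagreed. Of the 105 probe sets of the 38 genes, 73 had a negative difference and 32 a positive one. Of the 25 genes with at least 2 probe sets, all were lower in 11, all higher in 2 (*Rpl28* and *Rps14*) and mixed in 12. The 3 probe sets of *Rps15a* each separated the stages, 1 with a difference of -0.55 and the others with 0.28 and 2.01, while its gene value was -0.27. *Rps9*, of the mRNA entry channel, had negative differences in 7 of 7 probe sets, from -2.82 to -0.12, and its gene-level difference of -0.60 was -0.35 without E7.5 replicate 3. Its stages overlapped, with 9.92, 10.77 and 10.35 at E8.5, against 10.66, 10.74 and 11.45 at E7.5. For *Rpl12*, at the base of the stalk, the differences of all 5 probe sets were negative, from -0.36 to -0.048, while the gene value was -0.0077.

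**Figure D5:**
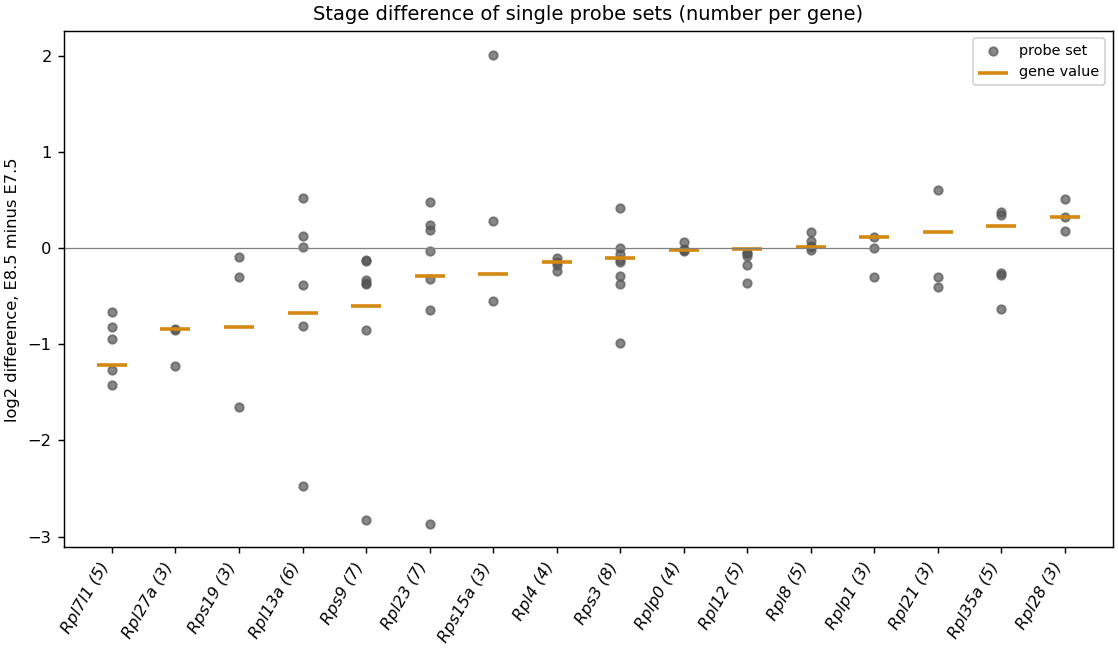
Log2 difference, E8.5 minus E7.5 (vertical axis), of single probe sets (grey points) for the 16 genes with at least 3 probe sets, with the number of probe sets in parentheses, and the gene value (orange bar), which is the difference of the stage means of the per-array medians. All probe sets of *Rpl7l1* and *Rpl27a* lie below 0, whereas those of *Rpl13a* run from -2.48 to 0.53 and those of *Rps15a* from -0.55 to 2.01.

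Other genes of ribosome supply had mostly negative differences, and none of them passed the test. Among all 16523 genes 49.5% were negative, and at an unadjusted p under 0.05 from limma 4.68% were lower and 3.11% higher at E8.5. Of 44 measured genes of ribosome biogenesis, 34 had a negative difference, with a median of -0.30, and 6 reached an unadjusted p under 0.05, all lower at E8.5. *Bop1*, needed to process the large subunit rRNA, had -1.77 (standard error 0.24, adjusted p = 0.11 from limma) and *Ddx21*, a nucleolar helicase, -1.58 (standard error 0.25, adjusted p = 0.16 from limma). Of 34 translation factors, 23 were negative, with a median of -0.17, and 3 had an unadjusted p under 0.05, all lower at E8.5, among them *Gspt1*, a release factor, at -1.03.
Of 16 genes that control ribosomal protein mRNAs, 12 were negative with a median of -0.36, and at an unadjusted p under 0.05 2 were lower and 1 was higher at E8.5. *Rps6kb1*, the kinase of ribosomal protein S6, had -0.78 (standard error 0.18, adjusted p = 0.35 from limma), and *Cdkn1a*, a p53 target, 0.68 (standard error 0.21, adjusted p = 0.50 from limma). The 70 mitochondrial ribosomal protein genes had a median of -0.18, and 52 of their differences were negative. The share of negative differences was 73.7% among the cytosolic and 74.3% among the mitochondrial genes. At an unadjusted p under 0.05 9 of them were lower and 0 higher at E8.5, among them *Mrpl3* at -1.75 (standard error 0.40, adjusted p = 0.35 from limma). Whether any of these lists differs from other genes was not tested.

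As for the sorted cell type, *Etv2* had a mean of 11.33 at E8.5 and 11.82 at E7.5 and *Kdr* 8.37 at E8.5 and 9.11 at E7.5, and of 12 markers of such cells none passed the test, with 2 higher at E8.5 at an unadjusted p under 0.05. Most of these markers ran the other way from *Etv2* and *Kdr*: 8 of the 12 had a positive difference, and the median of the 12 was 0.29. Of the endothelial genes, *Emcn* had 2.58, *Tie1* 1.27 and *Cdh5* 1.26 (95% interval -0.71 to 3.23). The others were smaller, with *Esam* at 0.57, *Tek* at 0.12 (95% interval -2.33 to 2.56) and *Pecam1* at -0.25. Among markers of other cells, 7 measured primitive erythroid genes averaged 6.02 to 6.17 over the E8.5 arrays, against 6.98 to 7.39 over the E7.5 arrays, and *Hbb-bh1*, an embryonic globin, had a log2 difference of -4.87 (adjusted p = 0.046 from limma). That mean was carried by *Hbb-bh1*, *Gata1* (-1.86) and *Epor* (-1.51), since the other 4 genes lay between -0.11 and 0.17 and the median of the 7 was -0.11. The averages of the 4 megakaryocyte, 9 visceral endoderm, 7 cardiac, 4 neural and 6 nascent mesoderm genes overlapped between the stages. No detection calls accompany the values, so none of these markers can be called absent, and the part of other cells in the ribosomal protein differences was not tested.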

How the data were processed

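The deposited table held log2 values that the authors had made with RMA, and the submitters' processing notes also name Affymetrix Power Tools, without versions. The selection of its 90788 exon probe sets was not stated in these sources. The platform annotation gave 1 symbol for 77669 probe sets, several for 654 and none for 12465, and those with 1 symbol were used. Another 17 probe sets that name a ribosomal protein gene beside other genes were left out. A gene's value on an array was the median of its probe sets.

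The log2 difference, E8.5 minus E7.5, was tested with limma 3.58.1 in R 4.3.3 without a filter, and p-values were adjusted over all 16523 genes. In simulated data of 16523 genes, 7, 26, 44 and 46 of 50 genes were recovered at changes of 1, 2, 4 and 6 log2 units, with 12 false calls. All these genes were raised at E8.5 in the same simulated table, with normal noise of each gene's observed pooled SD. The adjustment depends on how many genes change, so these rates need not hold for the real table. The members and lists were chosen with earlier results of these data known. The rule for named genes took those with separated stages, those with a listed role, the 6 with the smallest and the 6 with the largest pooled SD, and up to 3 per direction of each other list. *Rpl12*, *Rpl28*, *Rps9* and *Rps15a* were named after their values were seen. Start windows came from the RefSeq promoter table. Alternatives covered the value per gene, the probe sets and genes entering, the normalization, the variance model, array weights, the methods' t-test, a replicate block, each array left out, and the members.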

Additional observations from a re-analysis of the deposited data

How the results depend on the processing

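No ribosomal protein gene passed the test in any of 602 values under the alternatives, and the lowest adjusted p from limma was 0.17. The sign of the difference turned at least once in 20 of the 38 genes, in 15 when an array was left out and in 13 when the processing was changed, and the cause was not tested. With the mean over probe sets the difference was -0.034 for *Rpl21*, -0.088 for *Rpl35a*, 0.0025 for *Rplp0*, -0.062 for *Rplp1* and 0.58 for *Rps15a*. With the brightest probe set it was 0.0088 for *Rpl13a*, -0.40 for *Rpl21*, 0.066 for *Rplp0*, 0.28 for *Rps15a*, 0.079 for *Rps21*, 0.051 for *Rps27l* and 0.0045 for *Rps3*. With probe sets of above-median signal it was -0.26 for *Rpl35a*. With array medians made equal it was 0.040 for *Rpl12*, 0.027 for *Rplp0* and 0.013 for *Rps2*. After a second quantile normalization it was 0.031 for *Rpl10a*, 0.094 for *Rpl12*, 0.0053 for *Rpl26*, 0.039 for *Rplp0* and 0.00028 for *Rps2*. With 1 array left out the ranges were -0.26 to 0.067 for *Rpl10a*, -0.38 to 0.22 for *Rpl12*, -0.34 to 0.68 for *Rpl21*, -0.87 to 0.16 for *Rpl23*, -0.35 to 0.064 for *Rpl26*, -0.049 to 0.66 for *Rpl28*, -0.10 to 0.0059 for *Rpl3*, -0.80 to 0.16 for *Rpl31*, -0.071 to 0.48 for *Rpl35a*, -0.60 to 0.13 for *Rpl3l*, -0.012 to 0.039 for *Rpl8*, -0.15 to 0.087 for *Rplp0*, -0.27 to 0.21 for *Rps15*, -0.18 to 0.11 for *Rps2* and -0.52 to 0.27 for *Rps3*.

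On the brightest probe sets 3 ribosomal protein genes had separated stages and were lower at E8.5, 0 were lower by over 2-fold, the median difference was -0.057 (small subunit 0.0045, large minus small -0.14) and the median SD at E8.5 was 0.16. Over the 16 genes with at least 3 probe sets, 3 were separated as lower and 1 as higher, 11 differences were negative, and the medians were -0.014 for the large and -0.43 for the small subunit, 0.42 apart. Without the paralogs 0 were lower by over 2-fold. With array medians made equal the median was -0.091. When 1 array was left out, separated genes numbered 6 to 14 lower and 2 to 4 higher (smaller stages separate more easily), genes over 2-fold 1 to 3 lower and 0 to 1 higher, and negative differences 23 to 28. The median then ran from -0.24 to -0.073, that of the large subunit from -0.24 to -0.031, that of the small subunit from -0.35 to -0.11, large minus small from 0.0013 to 0.20, and the median SD from 0.21 to 0.30 at E8.5 and 0.18 to 0.27 at E7.5 (small subunit 0.18 to 0.28 at E8.5 and 0.059 to 0.50 at E7.5).

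Over all genes, limma called 6 higher and 12 lower at E8.5. With the mean over probe sets 2 were called higher, and with the brightest probe set 2 higher and 7 lower. None (0) were called in either direction with probe sets or genes of above-median signal, with the methods' t-test or with the replicate number as a block. Leaving out 1 array gave 0 to 8 higher and 0 to 4 lower. Same-numbered arrays of the stages deviated from their means with correlations of 0.0074, -0.0083 and -0.00082, against -0.030 to 0.033 for differently numbered ones. No pairing by number was seen, but these correlations cannot exclude a weak one. Precision is limited by 3 arrays per stage, amplified RNA of 50 cells, and 13 genes that rest on 1 probe set.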
